A study of Arabidopsis thaliana with 6 samples.

Results

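Expansins are plant cell wall proteins encoded in Arabidopsis thaliana by alpha-expansin (EXPA), beta-expansin (EXPB) and expansin-like A and B (EXLA, EXLB) genes. The 34 loci described here, of 33602 loci counted, were chosen by family membership and not by the value of any single gene: 25 EXPA, 5 EXPB, 3 EXLA and 1 EXLB gene. The family itself was proposed with mutant and wild-type results of these libraries in view, so its counts and values are a description and are not independent evidence about the family. The study sequenced RNA from the aerial parts of seedlings aged 11 days, grown in long days (16 h light and 8 h dark) at around 22 °C and harvested 5 h after lights on (ZT5). All plants were of the Col-0 ecotype, and 3 wild-type libraries were compared with 3 libraries of the snl1/2/3/4/5 quintuple mutant, which carries mutations in 5 of the 6 SIN3-LIKE genes in every tissue. SIN3-LIKE proteins are scaffolds of histone deacetylase complexes. The labels name neither the alleles nor the number of plants pooled in a library, and the replicates are described as biological.

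Growing plant cells are held by a wall of cellulose microfibrils tied together by other polysaccharides. Expansins let these polymers slip past each other without cutting them, most strongly at acid pH, and so allow the wall to stretch under turgor. This is the basis of acid growth, in which plasma membrane H+-ATPases acidify the wall. Wall loosening is established for alpha- and beta-expansins, whereas the expansin-like proteins are known mainly by their sequence.

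The libraries held 15194748, 14879617 and 13064598 reads assigned to genes in the wild-type replicates 1 to 3, and 12622416, 15774357 and 13548762 in mutant replicates 1 to 3. Levels are given as CPM, the read count relative to the TMM-scaled library total, in the order of replicates 1, 2 and 3. The fit tested 19591 genes and called 3587 of them higher and 3224 lower in the mutant at an adjusted p below 0.05 (edgeR quasi-likelihood test with Benjamini-Hochberg adjustment). The median log2 fold change of all tested genes was 0.00. Omitting wild-type replicate 1 lowered these counts to 2290 and 1757, and omitting mutant replicate 2 lowered them to 2486 and 1893. Transcripts of SNL1 to SNL5 were lower in every mutant library, by 1.89-fold for SNL5 to 23.7-fold for SNL2, and SNL6 was not called (adjusted p = 0.753). Of the mutant libraries, replicate 3 kept the most transcript of each of SNL1 to SNL5. It held 7.57 CPM of SNL2, against 2.32 and 2.64 in replicates 1 and 2. For SNL3 it held 7.04 CPM, against 2.55 and 2.02. For SNL4 and SNL1 the levels were 14.8 against 8.51 and 7.43 CPM and 26.4 against 20.7 and 19.0 CPM. SNL5 differed least, at 26.6 against 26.4 and 24.8 CPM. SNL1 overlaps an antisense gene, and the strand setting of the counting is not known. Its counts may therefore hold reads of the neighbour. Green leaf markers were abundant, at summed levels of 16598 to 18806 CPM in wild type and 14409 to 17728 CPM in the mutant, and 1 of 4, CAB2, was lower, a call lost when any wild-type library or mutant replicate 2 was omitted. All 14 root markers also had reads in these aerial libraries, and their levels are given beside the root expansins.

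Sequence upstream of the annotated transcript start is shown for 6 members: EXPA4 and EXPB3 because their change was large, EXPA5, EXPA6 and EXPA10 because they were higher and hold a TGTCTC match, and EXLA3 because it was the member that fell. Each stretch is the 250 bases before the start in the RefSeq annotation of TAIR10.1, read 5′ to 3′ on the gene's strand, and capitals mark matches on either strand to CACGTG (the G-box bound by PIF-type factors), TGTCTC (an auxin response element) or CGTGNG (which covers the element bound by BZR1). They lie at chr2:16545747-16545996 (minus strand), chr4:14002125-14002374 (minus), chr3:11013452-11013701 (minus), chr2:12433797-12434046 (minus), chr1:9259182-9259431 (plus) and chr3:16892452-16892701 (plus), and none overlaps an exon of another annotated gene.
EXPA4: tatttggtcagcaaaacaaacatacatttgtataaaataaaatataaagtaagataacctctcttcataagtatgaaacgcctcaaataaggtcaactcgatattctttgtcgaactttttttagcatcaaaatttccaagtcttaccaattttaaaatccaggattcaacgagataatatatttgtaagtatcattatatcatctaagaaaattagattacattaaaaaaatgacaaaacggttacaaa
EXPB3: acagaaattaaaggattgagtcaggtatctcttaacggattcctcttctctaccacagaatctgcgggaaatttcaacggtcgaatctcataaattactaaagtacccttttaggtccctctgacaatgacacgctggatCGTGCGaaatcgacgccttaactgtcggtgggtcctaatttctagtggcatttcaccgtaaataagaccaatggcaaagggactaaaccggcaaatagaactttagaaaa
EXPA5: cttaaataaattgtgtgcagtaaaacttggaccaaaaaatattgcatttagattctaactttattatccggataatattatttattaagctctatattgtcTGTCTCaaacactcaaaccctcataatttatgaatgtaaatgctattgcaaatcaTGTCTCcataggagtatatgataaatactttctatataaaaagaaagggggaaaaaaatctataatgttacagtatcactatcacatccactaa
EXPA6: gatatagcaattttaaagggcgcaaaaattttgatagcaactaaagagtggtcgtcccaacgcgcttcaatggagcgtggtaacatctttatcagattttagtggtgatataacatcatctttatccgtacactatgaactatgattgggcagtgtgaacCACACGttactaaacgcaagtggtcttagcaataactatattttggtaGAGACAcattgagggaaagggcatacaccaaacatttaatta
EXPA10: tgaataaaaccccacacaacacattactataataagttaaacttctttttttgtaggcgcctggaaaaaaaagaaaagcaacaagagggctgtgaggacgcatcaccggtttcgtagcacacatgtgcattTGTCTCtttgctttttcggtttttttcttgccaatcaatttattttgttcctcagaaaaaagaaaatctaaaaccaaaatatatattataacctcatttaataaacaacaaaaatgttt
EXLA3: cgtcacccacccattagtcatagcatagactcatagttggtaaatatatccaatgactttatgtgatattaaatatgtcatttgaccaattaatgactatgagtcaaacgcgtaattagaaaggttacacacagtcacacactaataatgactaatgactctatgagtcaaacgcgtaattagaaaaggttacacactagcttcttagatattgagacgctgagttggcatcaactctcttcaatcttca

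TGTCTC was found in 4 of the 34 expansin windows (EXPA5, EXPA6, EXPA7 and EXPA10) and in 10.9% of 27443 protein-coding promoters of the same length. CGTGNG was found in 8 of 34 windows and in 12.5% of all promoters, and its 8 holders included EXPA1, EXPA6 and EXPB3 among the 17 members that were higher and EXPA2, EXPA7, EXPA18, EXPB4 and EXLA2 among the rest. CACGTG was found in 1 window, that of EXPB2, and in 6.49% of all promoters. Matches of different motifs were counted separately even where their bases overlap. The EXPA4 and EXLA3 windows, 1 from a member that rose and 1 from the member that fell, hold none of these 3 motifs, which says only that these letters are not in these windows.

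Expansin transcripts were mostly more abundant in the mutant. Of 34 members, 23 passed the filter on low counts, and of these 17 were higher, 1 (EXLA3) was lower and 5 (EXPA7, EXPA18, EXPA20, EXLA1 and EXLA2) were not called. Higher calls thus made up 73.9% of the tested members, against 18.3% of all tested genes, and the lower call 4.35%, against 16.5%. The median log2 fold change of the tested members was 0.80, and 22 of 23 were above 0. In 18 members every mutant library lay above every wild-type library, which held for 25.2% of all tested genes, and in 1 member every mutant library lay below, which held for 24.6%. One tested member, EXPA17, passed the filter through the mutant libraries alone. The 17 folds ran from 1.34 to 10.2 with a median of 2.00, and 8 were 2-fold or more. When the test asked for a change beyond 1.5-fold, 6 of the 17 stayed called (EXPA4, EXPA10, EXPA15, EXPA17, EXPB3 and EXLB1). Over all 19591 tested genes that test called 528 higher, against 3587 without the 1.5-fold demand. These are bulk samples, in which more cells of a type and more RNA per cell cannot be told apart.

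**Figure D1:**
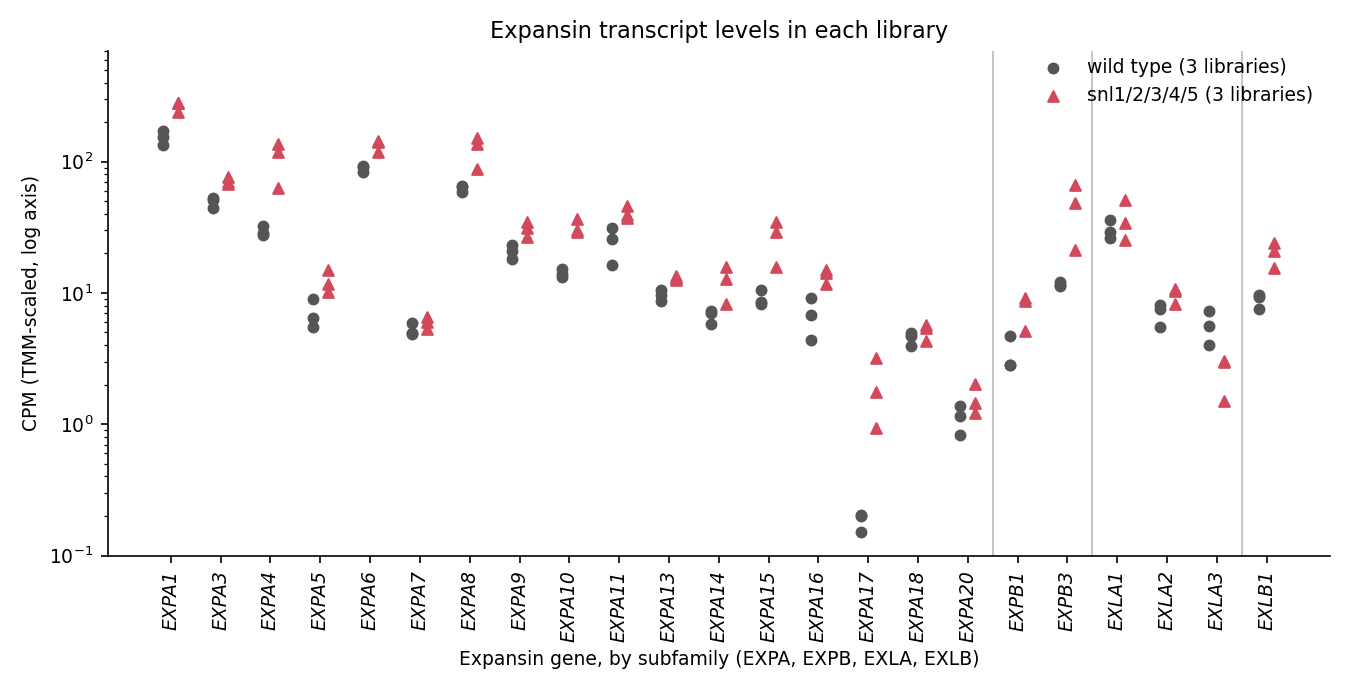
Level of each of the 23 tested expansin genes in each library, in CPM on a log axis, with grey circles for the 3 wild-type and red triangles for the 3 snl1/2/3/4/5 libraries and vertical lines between subfamilies. The mutant points lie above the wild-type points without overlap in 18 genes and below them in EXLA3.

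Among alpha-expansins 14 of 17 tested genes were higher, 0 were lower and the median log2 fold change was 0.80. EXPA1 (AT1G69530), which acts in guard cell walls during stomatal opening and is expressed more widely in growing shoots, had the highest level. It stood at 155, 134 and 170 CPM in wild type and at 282, 279 and 239 CPM in the mutant. Every mutant library exceeded every wild-type library, and the fold was 1.74 (log2 0.80, SE 0.11, adjusted p = 0.0012). Of 5 tested guard cell markers 0 were higher and HT1 and EPF1 were lower, beside 18.3% higher and 16.5% lower among all tested genes. FMA, KAT1 and MYB60 (log2 -0.21, -0.18 and 0.29) were not called. The summed level of the 5 was 57.0 to 68.2 CPM in wild type and 55.0 to 61.3 CPM in the mutant. The part of guard cells in the EXPA1 change was not tested. The count of lower guard cell markers was 0 with wild-type replicate 1 omitted and 1 with any other library but mutant replicate 1 omitted.

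EXPA3, EXPA5 and EXPA10 have been studied together with EXPA1 in leaf growth. EXPA10 (AT1G26770) had the smallest adjusted p of the family. Its level was 15.1, 13.3 and 14.0 CPM in wild type and 30.3, 36.5 and 28.9 CPM in the mutant, a 2.25-fold rise (log2 1.17, SE 0.11, adjusted p = 0.00034). The lowest mutant library was thus well clear of the highest wild-type library. EXPA3 (AT2G37640) stood at 51.3, 44.0 and 52.5 CPM against 67.6, 76.3 and 70.0 CPM in the mutant, 1.45-fold higher (SE of log2 0.09, adjusted p = 0.0031). EXPA5 (AT3G29030) was expressed at a lower level, 6.48, 5.53 and 9.03 CPM against 11.8, 14.9 and 10.1 CPM, and was 1.76-fold higher (SE of log2 0.21, adjusted p = 0.016). The groups did not overlap in either gene, although wild-type replicate 3 and mutant replicate 3 of EXPA5 came close.

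EXPA4 (AT2G39700) had the largest change among the alpha-expansins with at least 10 CPM. Its level was 27.6, 28.5 and 32.6 CPM in wild type and 137, 120 and 62.6 CPM in the mutant, with mutant replicate 3 well below the other two and still above all wild-type libraries. The fold was 3.60 (log2 1.85, SE 0.25, adjusted p = 0.0014). EXPA15 (AT2G03090) showed the same order of mutant libraries, at 8.47, 8.29 and 10.6 CPM in wild type and 34.6, 29.2 and 15.8 CPM in the mutant, and was 2.92-fold higher (SE of log2 0.26, adjusted p = 0.0035). EXPA8 (AT2G40610), reported with EXPA1 as a target of the growth-promoting bHLH factor HBI1, stood at 58.7, 65.8 and 64.1 CPM against 137, 152 and 87.5 CPM, 2.00-fold higher (SE of log2 0.18, adjusted p = 0.0043). In all 3 genes mutant replicate 3 was the lowest mutant library and the groups did not overlap.

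A further 6 alpha-expansins rose by 2.00-fold or less. EXPA6 (AT2G28950), second in level to EXPA1 in wild type, stood at 91.5, 82.8 and 92.8 CPM and at 144, 141 and 119 CPM in the mutant, 1.51-fold higher (SE of log2 0.09, adjusted p = 0.0021). EXPA9 (AT5G02260) stood at 21.0, 18.1 and 23.1 CPM against 31.1, 35.0 and 26.5 CPM, 1.49-fold higher (SE of log2 0.13, adjusted p = 0.0092). EXPA11 (AT1G20190) varied more in wild type, at 25.9, 16.4 and 31.4 CPM against 46.0, 37.5 and 39.5 CPM, 1.67-fold higher (SE of log2 0.20, adjusted p = 0.023). In these 3 genes the lowest mutant library was above the highest wild-type library. EXPA13 (AT3G03220) had the smallest rise of the called members, from 10.6, 9.64 and 8.65 CPM to 13.4, 13.0 and 12.5 CPM, or 1.34-fold (SE of log2 0.11, adjusted p = 0.015). EXPA16 (AT3G55500) stood at 9.19, 4.38 and 6.83 CPM against 14.9, 11.8 and 14.2 CPM, 2.00-fold higher (SE of log2 0.23, adjusted p = 0.012). EXPA14 (AT5G56320), reported downstream of the lateral root factor LBD18, stood at 5.82, 7.28 and 7.06 CPM against 15.7, 12.8 and 8.18 CPM, 1.82-fold higher (SE of log2 0.22, adjusted p = 0.018). Its mutant replicate 3 was only slightly above wild-type replicate 2, and no group overlapped in any of these genes. The calls of EXPA5, EXPA11, EXPA13 and EXPA14 did not hold in each fit that left out 1 library: the largest adjusted p was 0.070 for EXPA5, 0.062 for EXPA11, 0.052 for EXPA13 and 0.076 for EXPA14. The libraries concerned were wild-type replicates 1 and 2 and mutant replicate 2 for EXPA5, wild-type replicate 1 and mutant replicates 1 and 2 for EXPA11, wild-type replicate 3 and mutant replicate 2 for EXPA13, and wild-type replicate 1 and mutant replicate 2 for EXPA14.

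Neither of the root hair expansins was called. EXPA7 (AT1G12560) and EXPA18 (AT1G62980), which act in root hair growth, stood at 4.83, 4.99 and 5.92 CPM and at 4.70, 4.92 and 3.95 CPM in wild type, and at 6.58, 5.29 and 5.97 CPM and 5.42, 5.67 and 4.28 CPM in the mutant. The groups overlapped in both (adjusted p = 0.378 and 0.425). Both overlap an antisense gene, and no source used here gives the strand setting of the counting, so their counts may hold reads of the neighbour. Of 7 root hair markers 1 was higher and 0 were lower, beside 18.3% and 16.5% of all tested genes. The higher one was COW1, a phosphatidylinositol transfer protein needed for root hair shape. It rose 4.61-fold from 7.87, 7.28 and 5.54 CPM to 31.7, 34.4 and 29.6 CPM (adjusted p = 7.8e-05). The other 6 (SHV2, PRP3, RHD2, ADF8, RSL4 and RHD6) were not called, and their summed level was 35.5 to 39.2 CPM in wild type and 25.2 to 46.8 CPM in the mutant. With mutant replicate 1 omitted, 1 root hair marker was lower. EXPA20 (AT4G38210), at 1.39, 1.15 and 0.835 CPM against 2.01, 1.45 and 1.22 CPM, was not called either (adjusted p = 0.256), and it too overlaps an antisense gene.

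EXPA17 (AT4G01630), which acts in lateral root emergence downstream of LBD18, had the largest fold on the fewest reads. Wild-type libraries held 3, 3 and 2 of its reads and mutant libraries 12, 28 and 42, and the fitted fold was 10.2 (SE of log2 0.58, adjusted p = 0.0037). It passed the filter through the mutant libraries alone, so this p is a description only. The ratio of summed reads per total was 10.6 (exact 95% interval 5.11 to 25.3, counting error only). Its mutant libraries were spread over 0.929 to 3.21 CPM, and it was the only higher member with its highest level in mutant replicate 3. LBD18 itself did not pass the filter, at 0.265 to 0.911 CPM in wild type and 0.542 to 0.612 CPM in the mutant. Of 7 markers of other root tissues 6 were not called and the other was higher, beside 18.3% of all tested genes. The call of the other, WOX5, is a description only, since it too passed the filter through the mutant libraries alone, with 6, 3 and 6 reads in wild type against 10, 15 and 10, and the count of called markers was 0 with any library but mutant replicate 3 omitted and 2 with that one omitted. None of the 7 was at 0, and their summed level was 40.3 to 43.7 CPM in wild type and 44.4 to 53.6 CPM in the mutant. The part of root material in the EXPA17 change was not tested.

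Of the 5 beta-expansins 2 passed the filter and both were higher, with a median log2 fold change of 1.55. Among all tested genes 18.3% were higher, and 2 genes are too few to compare with that share. EXPB3 (AT4G28250) stood at 11.5, 11.3 and 12.2 CPM in wild type and at 66.4, 48.1 and 21.4 CPM in the mutant, 3.89-fold higher (log2 1.96, SE 0.35, adjusted p = 0.0041). The wild-type libraries were close together, while the mutant libraries differed widely and replicate 3 was the lowest. EXPB1 (AT2G20750) stood at 2.84, 4.72 and 2.81 CPM against 9.13, 8.75 and 5.13 CPM, 2.21-fold higher (SE of log2 0.28, adjusted p = 0.014). Mutant replicate 3 was only narrowly above wild-type replicate 2, and the adjusted p rose to as much as 0.062 when wild-type replicate 1 or mutant replicate 2 was left out. EXPB2 (AT1G65680) had no read in wild type, against 12, 9 and 3 reads in the mutant libraries. With a floor of 3 reads in place of the wild-type count the ratio was 8.24, without the counting error of the mutant reads. This ratio is not a lower bound. An exact 2-sided permutation test gave p = 0.1, the smallest that 3 against 3 libraries allow. EXPB5 (AT3G60570) had 1 read in all and EXPB4 (AT2G45110) none. Beta-expansins include pollen proteins. VGD1, a pollen marker, had no read in any library, and the 3 pollen markers together reached at most 1.06 CPM.

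Of the 3 expansin-like A genes 0 were called higher, 1 was lower and 2 were not called. Among all tested genes 18.3% were higher and 16.5% lower, and 3 genes are too few to differ from these shares. EXLA3 (AT3G45960) stood at 5.62, 4.05 and 7.28 CPM in wild type and at 3.02, 1.51 and 2.98 CPM in the mutant. All mutant libraries lay below all wild-type libraries, and it was 2.28-fold lower (log2 -1.19, SE 0.30, adjusted p = 0.018). The call was lost when mutant replicate 2, or either of wild-type replicates 1 and 3, was omitted, with an adjusted p of up to 0.058. EXLA1 (AT3G45970), which lies on the same chromosome with 1 gene between it and EXLA3, stood at 29.2, 36.1 and 26.1 CPM against 33.98, 25.4 and 51.1 CPM. Its groups overlapped, it was not called (adjusted p = 0.402), and it overlaps an antisense gene. EXLA2 (AT4G38400), known from work on Botrytis susceptibility, stood at 7.54, 8.09 and 5.46 CPM against 10.7, 8.31 and 10.4 CPM. Its mutant libraries were all above wild type, yet it missed the threshold (log2 0.47, SE 0.17, adjusted p = 0.063). The single expansin-like B gene, EXLB1 (AT4G17030), was higher in every mutant library, at 9.66, 9.37 and 7.51 CPM against 24.1, 20.8 and 15.6 CPM (2.28-fold, SE of log2 0.17, adjusted p = 0.0017).

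**Figure D2:**
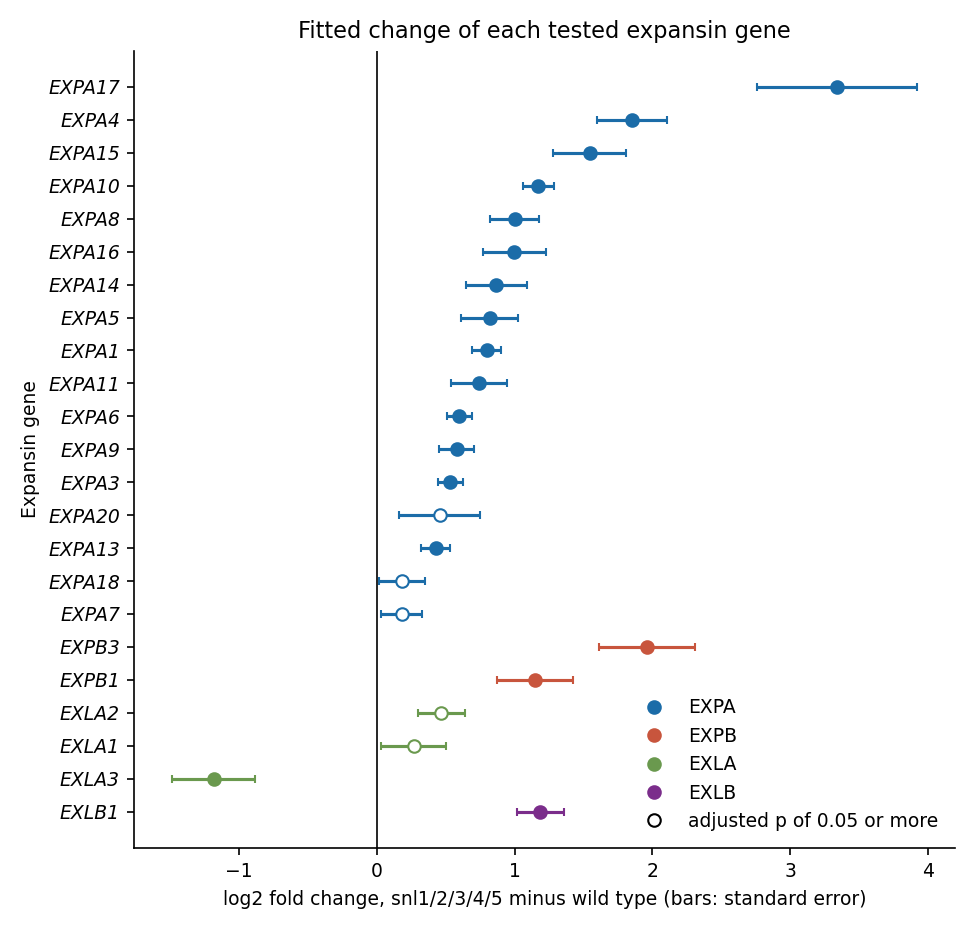
Fitted log2 fold change (snl1/2/3/4/5 minus wild type) of each tested expansin gene with its standard error, coloured by subfamily, with open circles at an adjusted p of 0.05 or more. EXPA17 is farthest right at 3.34 with the widest bar (SE 0.58), and EXLA3 at -1.19 is the one gene left of 0.

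The remaining members were at or near 0. EXPA22 (AT5G39270), EXPA23 (AT5G39280), EXPA24 (AT5G39310), EXPA25 (AT5G39300) and EXPA26 (AT5G39290), which lie in a row on chromosome 5 beside EXPA21, had no read in any library, as EXPB4 did. EXPA22 and EXPA26 are 97.1% identical over 937 bp and EXPA23 and EXPA25 96.8% over 901 bp, so reads from them could be lost as ambiguous. EXPA12 (AT3G15370) had 1, 0 and 1 reads in the wild-type libraries against 6, 5 and 4 in those of the mutant, a ratio of 7.72 (exact 95% interval 1.80 to 69.6, exact two-sided permutation p = 0.1). EXPA21 (AT5G39260) had 8, 7 and 3 reads against 4, 3 and 4. EXPA2 (AT5G05290), an expansin of germinating seeds, had 0, 1 and 3 reads against 1, 1 and 0. The groups overlapped in EXPA21 and EXPA2, and their ratios of 0.629 (0.269 to 1.41) and 0.515 (0.0466 to 3.59) had intervals that span equality. Both genes overlap an antisense gene, so these reads may belong to the neighbour.

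Levels of different genes were compared per kb of exon. On that scale EXPA1 was highest in both groups, at 98.9 ± 11.7 CPM per kb in wild type and 172 ± 15.5 CPM per kb in the mutant (SD, n = 3). EXPA1, EXPA6 and EXPA8 together supplied 52.6% of the wild-type and 50.7% of the mutant family level. EXPA4 moved from rank 6 to rank 4, from 19.7 ± 1.75 to 70.9 ± 25.9 CPM per kb, and EXPB3 from rank 14 to rank 9, from 5.58 ± 0.237 to 21.7 ± 10.8 CPM per kb. Summed over the family, the level was 386, 361 and 405 CPM per kb in wild type and 762, 733 and 587 CPM per kb in the mutant, a ratio of means of 1.81. All 3 mutant sums were above all wild-type sums, with replicate 3 the lowest of them. EXPA1, EXPA4, EXPA8 and EXPA6 made up 64.8% of the difference. The ratio was 1.83 for EXPA, 3.47 for EXPB, 1.16 for EXLA and 2.28 for EXLB, and alpha-expansins held 85.7% of the family level in wild type and 87.0% in the mutant. EXLA sums overlapped between the groups, at 38.3, 44.1 and 34.7 against 43.6, 32.3 and 59.4 CPM per kb.

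**Figure D3:**
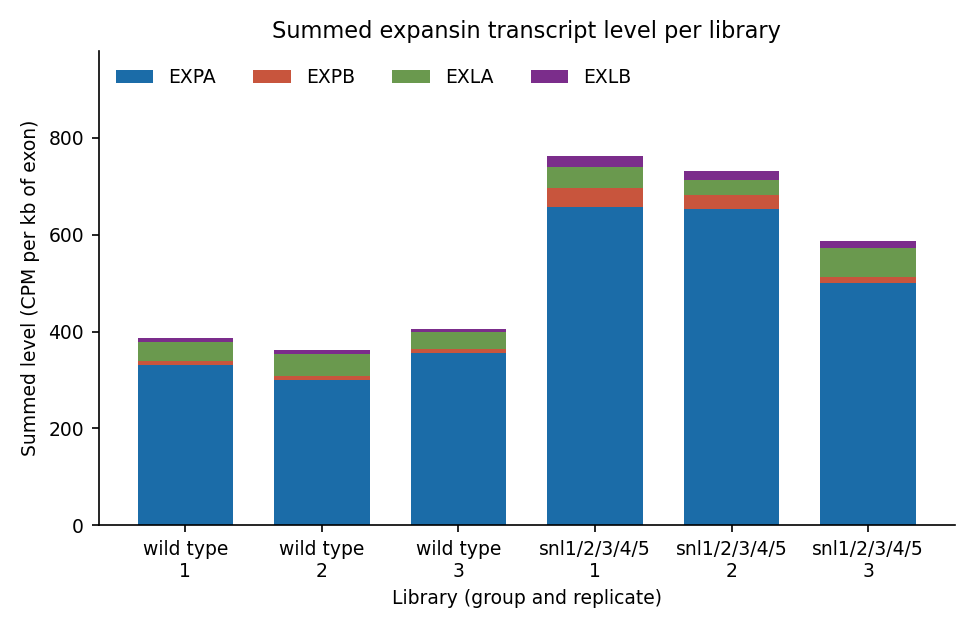
Summed expansin level per library in CPM per kb of exon, stacked by subfamily. The wild-type bars reach 361 to 405 and the mutant bars 587 to 762, and the EXPA part fills most of each bar.

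Mutant replicate 3 had the lowest level of the mutant libraries in 13 of the 17 higher members, or 76.5%, whereas it was the lowest in 47.3% of all genes called higher. Its ratio to the wild-type mean was 2.12 for EXPA4, against 4.64 and 4.04 in replicates 1 and 2, and 1.84 for EXPB3, against 5.69 and 4.13. EXPA17 ran the other way, with ratios of 5.04, 9.57 and 17.4. The same library kept the most transcript of each of SNL1 to SNL5, as given above, and the part of this in the expansin levels was not tested. With this library omitted 17 members were higher and 1 lower, and no fold of a called member moved by more than 1.43-fold.

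**Figure D4:**
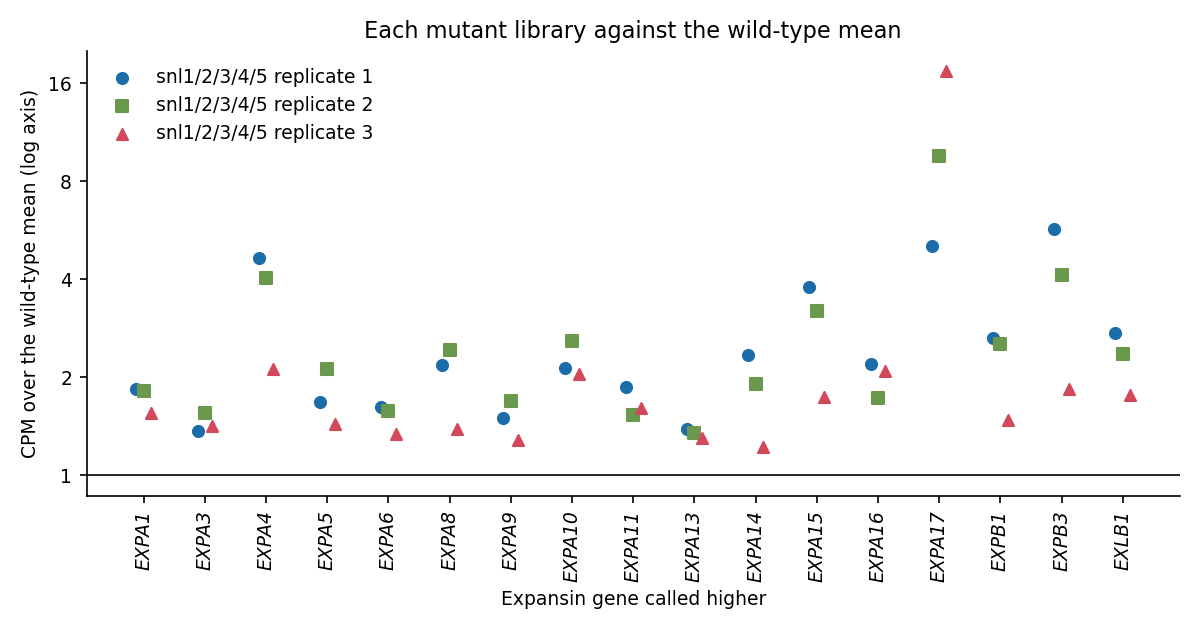
Level of each mutant library divided by the wild-type mean, on a log axis, for the 17 expansin genes called higher, with a symbol for each mutant replicate. Replicate 3 (triangles) is lowest in 13 genes and highest in EXPA17, at 17.4.

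In the authors' deposited table of higher genes, whose 695 entries all have a log2 fold change of at least 1.00, 6 members appear: EXPA4 (1.84), EXPA10 (1.16), EXPA15 (1.53), EXPB1 (1.14), EXPB3 (1.95) and EXLB1 (1.18). EXPA8 and EXPA17 are not in that table. The fitted log2 fold change of EXPA8 here was 1.0006, beside a smallest value of 1.0001 in that table. That of EXPA17 here was 3.34, on 8 wild-type reads in all. The reason for either absence was not tested. The authors' deposited table of 480 lower genes holds EXLA3 (-1.19).

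Further genes of wall loosening are given beside the shares of all tested genes, 18.3% higher and 16.5% lower. Xyloglucan endotransglucosylase/hydrolases (XTH), which cut and rejoin the xyloglucan that ties cellulose together, were higher in 10, lower in 1 (TCH4, 1.94-fold) and not called in 18 of 29 tested genes, with a median log2 fold change of 0.27. The lower count was 0 with any wild-type library or mutant replicate 2 omitted, and 2 and 3 with mutant replicates 1 and 3 omitted. The smallest adjusted p values belonged to XTH4 (2.34-fold, 0.00017), XTH31 (4.28-fold, 0.00020), XTH19 (3.15-fold, 0.00041) and XTH32 (2.20-fold, 0.00086). SAUR19 subfamily proteins, which activate the plasma membrane H+-ATPases through inhibition of their phosphatases, were higher in 5 of 6 genes, with a median of 0.97. SAUR20 was 2.00-fold, SAUR23 1.82-fold, SAUR21 (AT5G18030) 1.99-fold and SAUR24 1.93-fold higher, with adjusted p of 0.015 to 0.023. This count fell to 1 in 4 of the fits without 1 library (wild-type replicate 1 or 2, mutant replicate 1 or 2).

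Calls among the proton pumps and upstream factors were few, and their counts are read against the same 18.3% and 16.5% of all tested genes, from which they are not shown to differ. Of 9 tested H+-ATPase genes, HA1 was higher by 1.19-fold (adjusted p = 0.027), HA8 lower by 2.24-fold (adjusted p = 0.00060) and 7 were not called, and HA8 overlaps an antisense gene. HA1, a main pump of the shoot, stood at 619, 628 and 603 CPM against 761, 724 and 708 CPM, and leaving out any wild-type library or mutant replicate 2 ended its call. With mutant replicate 1 or 3 omitted, 2 pump genes were lower. Among 8 tested transcription factors reported upstream of expansin genes, BES1 (1.31-fold, adjusted p = 0.0045) and BZR1 (1.22-fold, adjusted p = 0.020), the brassinosteroid factors, were higher. PIF4, a light and temperature factor, was 1.38-fold lower (adjusted p = 0.0041), and the auxin response factor ARF19 was 1.39-fold lower (adjusted p = 0.026). Omitting wild-type replicate 1 or 3 left 1 of these higher and 1 lower, and omitting mutant replicate 2 left 1 lower. HBI1, NPH4 (ARF7), RHD6 and RSL4 were not called, and BES1, BZR1 and NPH4 overlap antisense genes.

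**Figure D5:**
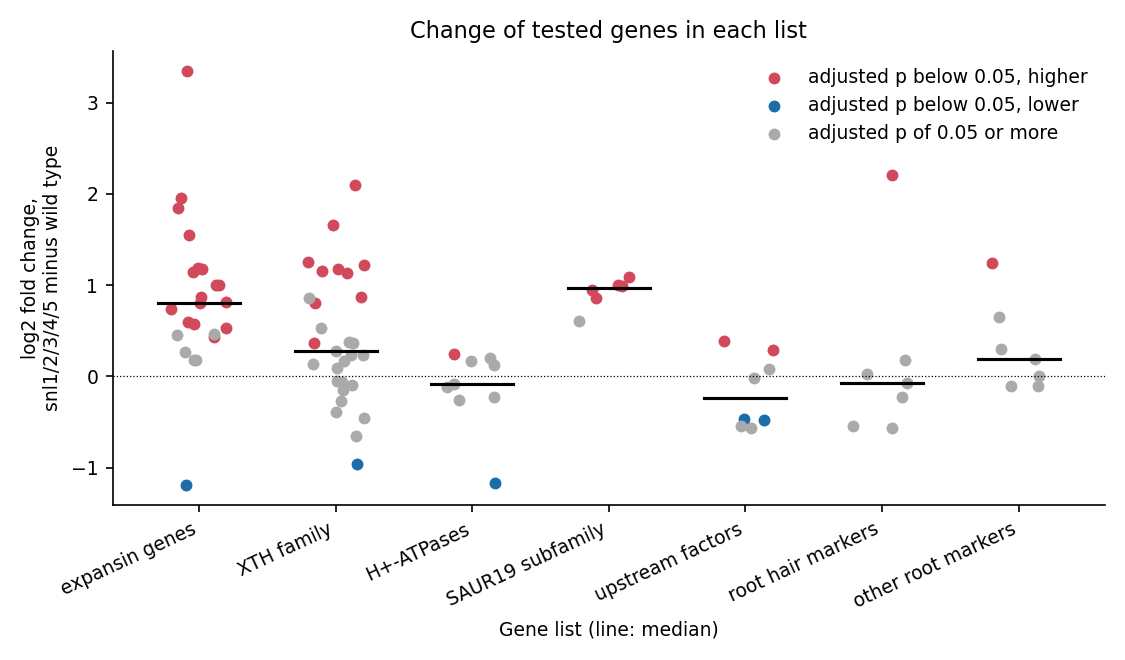
Log2 fold change (snl1/2/3/4/5 minus wild type) of every tested gene in the expansin family and in 6 further lists, with a line at each median and colours for the call. Medians are 0.80 for expansins, 0.27 for XTH genes, -0.08 for H+-ATPases, 0.97 for SAUR19 genes and -0.24 for upstream factors, and RHD6 and RSL4 stand in the upstream factors and the root hair markers.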

How the data were processed

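Per the labels' protocols, libraries of 3 wild-type and 3 snl1/2/3/4/5 samples were made with a directional kit. cutadapt 1.4, TopHat, HTSeq, edgeR and the TAIR10 genome are named in the submitters' processing notes, and no source used here gives the other versions, the role of each tool or the strand setting. The authors deposited whole-number counts per gene, without normalization, and these were tested. Of the authors' deposited tables of changed genes, the log2 fold changes were used and the p-values and 12 CPM columns were not.

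Groups and replicate numbers come from the titles and genotype labels. Genes were kept with filterByExpr (minimum count 10, minimum total 15), scaled by TMM (factors 0.966 to 1.02) and tested with edgeR 4.0.16 (glmQLFit, glmQLFTest, group alone) in R 4.3.3, with Benjamini-Hochberg adjustment over 19591 genes and a threshold of 0.05. Folds are fitted, and an SE is the log2 fold change over the root of F. Exact 95% intervals cover counting error only, and the floor of 3 reads that of the wild-type group alone. Reads are not independent molecules. The edgeR p-values set the group difference against the spread between these libraries, and the permutation p-values set it against reassigned group labels. Alternatives used DESeq2 1.42.0, limma 3.58.1 voom, other scalings and filters, a 1.5-fold test, leaving out each library and a replicate block. The fit was tested on simulated counts.

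Gene names, exons, antisense neighbours and sequences come from RefSeq TAIR10.1, and copies from BLAST+ 2.17.0 (95% identity over 100 bp). The counts carry no coordinates. Members and lists were chosen with earlier results of these data known. Named genes are all 34 members, with values per library for called members and those of 10 CPM or more, up to 4 called genes per further list by adjusted p, and the root hair markers. Values per library of EXPA7, EXPA18, EXPA20, EXLA2 and the untested members, and TCH4, WOX5, LBD18, CAB2, VGD1 and the uncalled factors, were added after their values were seen.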

Additional observations from a re-analysis of the deposited data

How the results depend on the processing

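The count of 17 higher expansin genes was 16 to 19 in the alternatives that kept all libraries, other than the test against 1.5-fold, where it was 6, and 12 to 17 when each library was left out. Of the 17, 12 stayed called in each of these alternatives in which they were tested, other than the 1.5-fold test. EXPA17, whose p is a description only, is among these 12 and among the members called against 1.5-fold. Against 1.5-fold, 0 expansins were lower, 4 EXPA and 1 EXPB genes were higher and 0 EXLA genes were lower, as were 528 higher and 229 lower genes over the whole table. With each library left out, the lower expansin count and the lower EXLA count were 0 to 1, EXPA higher 10 to 14, EXPB higher 1 to 2, and over all genes 2290 to 3806 were higher and 1757 to 3511 lower. Deviations of same-numbered libraries correlated at 0.0136, 0.148 and -0.0561, and those of unlike-numbered libraries at -0.131 to 0.126. The labels do not say whether replicate numbers mark shared batches, and so few libraries cannot decide it. The replicate block gave 17 higher and 1 lower expansins, SAUR19 higher 3, guard cell lower 1, and 0 for H+-ATPases higher, other root higher and green leaf lower.

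Against 1.5-fold the count was 0 for H+-ATPases higher, SAUR19 higher, XTH lower, upstream factors higher and lower, other root higher, guard cell lower and green leaf lower. The default DESeq2 run gave 0 for XTH lower, other root higher and guard cell lower and 1 for upstream factors higher. limma-voom gave 2 H+-ATPases lower. Other root higher was 0 with no filter and with at least 1 CPM in 3 libraries. With each library left out the counts were 0 to 1 for H+-ATPases higher, 1 to 2 for H+-ATPases lower, 1 to 6 for SAUR19 higher, 0 to 3 for XTH lower, 1 to 2 for upstream factors higher and lower, 0 to 1 for root hair lower, 0 to 2 for other root higher and guard cell lower, and 0 to 1 for green leaf lower. The sign turned for 2 uncalled genes when a library was left out: the log2 fold change of EXLA1 ranged from -0.045 (mutant replicate 3 left out) to 0.48, and that of SNL6 from -0.025 (mutant replicate 1 left out; -0.012 with wild-type replicate 2 left out) to 0.084. The cause of these changes was not tested. Depth limits the members with few reads (EXPA2, EXPA12, EXPA17, EXPA21, EXPB2 and EXPB5).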
